A study of Mus musculus with 6 samples.

Results

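Samples 1 and 2 are the first numbered wild-type and NIKaly/aly preparations of LSK cells in a series of 6, and they are described here against the other 4. LSK cells are the lineage-negative, Sca-1-positive, c-Kit-positive fraction of bone marrow that holds hematopoietic stem cells and multipotent progenitors. The wild-type group is samples 1, 3 and 5. The NIKaly/aly group is samples 2, 4 and 6, from mice homozygous for aly, a point mutation of Map3k14 that disables NIK, a kinase upstream of the alternative NF-kB pathway. All 6 were freshly sorted, and RNA from each was amplified with a low-input kit and hybridised to 1 one-colour array. Age, treatment, pooling of animals and sorting batch are not given in the sources used here, so samples of 1 genotype may not be separate animals, and any p-value reflects the spread of these 6 preparations alone. Samples 1 and 2 were chosen from measured values of these arrays, in which they stood apart from samples 3 to 6 in the red cell genes Hbb-b1 and Hba-a1 and the neutrophil genes S100a8 and Ngp. The separation of samples 1 and 2 is therefore described with no test. Tests are given for genotype, which is balanced over the 2 sets of samples, and for whether the separation differed between genotypes.

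Blood cells form when stem cells lose self-renewal and pass through committed progenitors. Erythroblasts fill with hemoglobin, made of alpha and beta globin chains that each hold a heme group, and shed their nucleus. Developing neutrophils first make primary granule proteases, then secondary granule proteins such as lactoferrin, and last the receptors of the mature cell. Globins, secondary granule proteins and receptors of the mature neutrophil mark cells that a lineage depletion is meant to remove. Primary granule genes are made earlier, and their list holds Ms4a3, a marker of granulocyte-monocyte progenitors. Kit, Hlf and Mecom belong to stem and progenitor cells.

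The 6 arrays shared 1 slide and 1 scan. Samples 1 to 4 lay in slide row 1 and samples 5 and 6 in row 2. The percentage of non-control spots well above background was 33.1% and 37.3% in samples 1 and 2 and ranged from 33.7% to 45.6% in samples 3 to 6, and their 75th percentile signals were 47.0 and 126 against 50.8 to 225. Array brightness thus did not separate the 2 sets. The header quality summary marked sample 1 and sample 6 for evaluation. Over 15684 tested genes, Pearson's r was 0.975 between samples 1 and 2, 0.929 to 0.951 between either of them and samples 3 to 6, and 0.963 to 0.989 among samples 3 to 6.

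The probes that carry the main differences are shown here so that the measured transcript can be seen. They are the 60-base array probes of an alpha globin, of the chaperone that holds free alpha globin, of 2 neutrophil proteins and of 2 long nuclear RNAs.
Hba-a1 probe: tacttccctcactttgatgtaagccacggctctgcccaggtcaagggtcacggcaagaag
Ahsp probe: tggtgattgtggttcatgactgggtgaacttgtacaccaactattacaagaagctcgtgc
S100a8 probe: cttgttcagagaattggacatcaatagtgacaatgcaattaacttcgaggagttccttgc
Ngp probe: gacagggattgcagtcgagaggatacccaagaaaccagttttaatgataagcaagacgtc
Malat1 probe: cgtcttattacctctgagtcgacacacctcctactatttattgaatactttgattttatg
Neat1 probe: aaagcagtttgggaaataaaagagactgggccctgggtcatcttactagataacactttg
The files place the Hba-a1 probe at chr11:32183955-32184014, the S100a8 probe at chr3:90473778-90473837 and the Ngp probe within chr9:110324266-110324814, all on the plus strand of the mm9 build. The Malat1 probe lies at chr19:5795713-5795772 and the Neat1 probe at chr19:5842564-5842623, both on the minus strand, and the Ahsp probe has no position in the files. Exon and UTR annotation of that build was not used here.

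Levels are given as log2 of the processed signal over the array's 75th percentile, so 0 is the level that 75% of spots lie under, and levels of different probes are not comparable. A gene was counted as apart when, in both genotypes and in the same direction, the first sample lay outside the range of that genotype's later 2 samples and at least 2-fold from their mean. By this rule 1592 of 15684 genes (10.2%) read higher in samples 1 and 2 and 1089 (6.94%) read lower. Within wild type alone 3034 genes (19.3%) met it upward and 1787 (11.4%) downward, and within NIKaly/aly alone 2658 (16.9%) and 1673 (10.7%). Both samples lay above all 4 later ones in 6236 genes (39.8%) and below all 4 in 2641 (16.8%). The difference had the same sign in both genotypes for 79.7% of genes, and Pearson's r across genes between the genotypes' differences was 0.74, a description since genes are not independent replicates. The rule is met by a narrow margin in some genes: Fech, the last enzyme of heme synthesis, differed by 1.02 and 1.0 and was counted, and the granule peptidase gene Ctsc, at 0.99 and 1.01, was not.

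**Figure D1:**
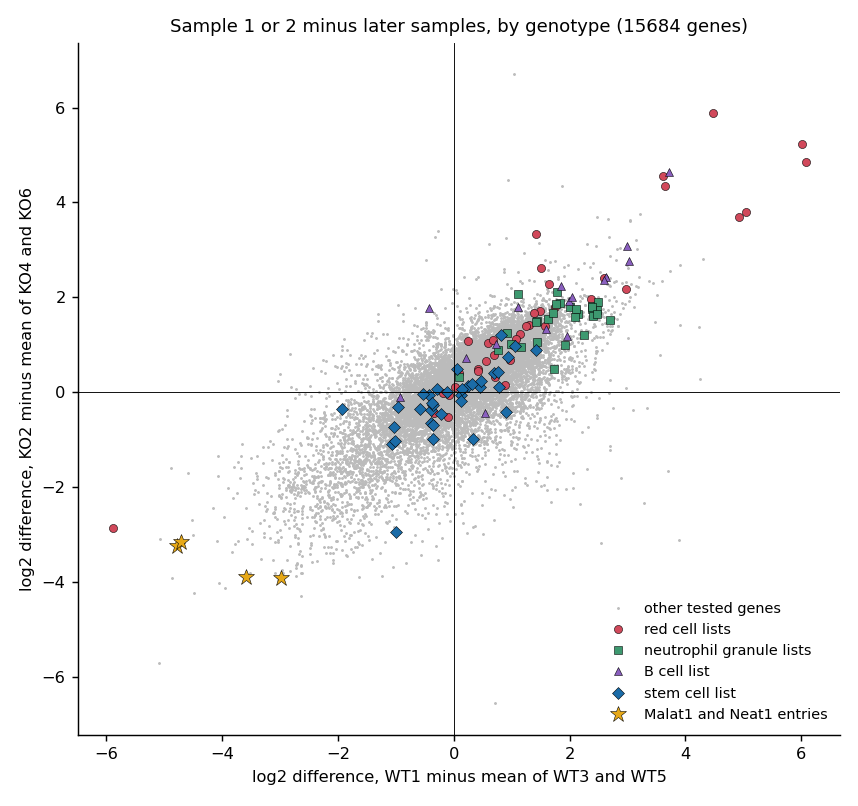
Each point is 1 of 15684 genes, with the log2 difference of wild type 1 from wild type 3 and 5 on the horizontal axis and of NIKaly/aly 2 from NIKaly/aly 4 and 6 on the vertical axis. Red cell, neutrophil granule and B cell genes lie mostly at upper right, stem cell genes around the origin, and the Malat1 and Neat1 entries at lower left; Hba-a1 is at 6.0 and 5.23.

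The balance of higher and lower genes depended on how the arrays were scaled. The median difference of all tested genes was 0.31, and the share of apart genes that read higher was 59.4%. With median scaling, as in the authors' deposited table, 623 read higher and 1064 lower (36.9% higher). Quantile normalization gave 615 and 1227 (33.4%), and normexp gave 288 and 316 (47.7%). Scaling on the 75th percentile of probes well above background on every array gave 296 and 1963 (13.1%), with an all-gene median of -0.16. Centring the differences on the all-gene median, an alternative chosen after the data were seen, gave 602 and 1567 (27.8%). Of the 100 named genes counted as apart, none changed sign under any alternative. They were picked in these same data for a difference of at least 2-fold in both genotypes, so a change of sign was unlikely from the outset.

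**Figure D2:**
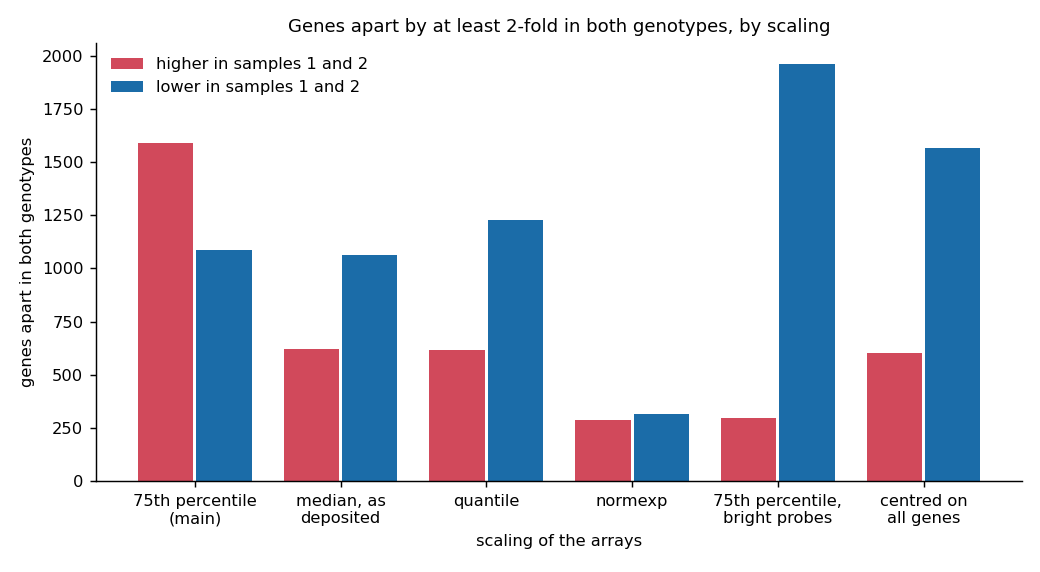
Bars give the number of genes apart in both genotypes, higher or lower in samples 1 and 2, under 6 scalings of the same arrays. The main scaling alone gave more higher genes (1592) than lower ones (1089).

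Globins, the heme pathway and the genes of the red cell surface and cytoplasm read higher in both samples, and the transcription factors that start the erythroid program did so in part. Samples 1 and 2 read 7.48 and 6.31 for the alpha globin Hba-a1, against 0.53, -0.81, 2.42 and 2.96 in samples 3 to 6. The 2 samples thus lay above all the others, 49.2-fold above their mean. Hba-a2, a near-identical alpha globin whose probe may share transcripts with that of Hba-a1, read 11.09 and 9.53 against 3.94, 2.59, 6.09 and 6.75. The adult beta globin Hbb-b1 read 7.61 and 6.51 against 2.48, 2.47, 2.90 and 3.18, a 19.7-fold difference. In these bulk samples, more cells of a type and more RNA per cell cannot be told apart.

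Other adult red cell entries were well above background on samples 1 and 2 only, so they did not enter the 15684 genes, and they are named after their values were seen. The beta globin entry Beta-s read 3.01 and 1.82 and stayed below that mark on all 4 later arrays, which puts the difference at at least 40.6-fold. Alas2, the erythroid enzyme that begins heme synthesis, was at least 29.6-fold higher on the same reckoning, Hbb-b2 at least 10.3-fold and the membrane skeleton gene Add2 at least 4.37-fold. These bounds set the mean of samples 1 and 2 against the lowest signal well above background on each later array, or the probe's own signal where that is higher. In all, 46 probes were well above background on samples 1 and 2 and on no other array, and 572 on all of samples 3 to 6 and neither of the first 2. The embryonic globins Hbb-y, Hbb-bh1 and Hba-x and the spectrin and ankyrin genes Sptb and Ank1 were not well above background on any of the 6.

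Of 11 tested heme synthesis genes, 5 were apart and higher, and the list median was 0.83 against 0.31 for all tested genes. Alad, which makes the pyrrole ring of heme, read 4.26 and 5.31 in samples 1 and 2 and 2.70 to 3.67 in the others. The enzyme genes Urod and Fech and Tmem14c, a carrier of heme precursors, were also among them. The list spans widely different responses, since the mitochondrial iron importer Slc25a37, named after its values were seen, differed by -0.39. Of 10 tested red cell membrane genes of 18 listed, 6 were apart and higher. Cldn13, a claudin of mouse erythroid cells, read 1.98 and 1.29 against -5.45 to -1.67. Cldn13 and Rhd were well above background on 2 of the 4 later arrays and Slc4a1 on 1, and with normexp the 3 differences were 2.37, 2.24 and 2.24. The anion exchanger Slc4a1 read 2.15 and 1.07 against -3.55 to -1.89, and the Rh antigen gene Rhd 1.83 and 1.74 against -3.19 to -1.78. Aqp1, Kel and Icam4 completed the 6.

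Among 16 tested genes of red cell maturation, 8 were apart and higher and 1 lower. Ahsp read 3.84 and 4.18 against -1.0 to 0.66. The carbonic anhydrase gene Car1 read 2.29 and 3.74 against -0.06 to 1.0. In Ahsp and Car1 the NIKaly/aly sample was the brighter, the reverse of the globins. Tspo2 and Blvrb, the biliverdin reductase gene, differed by 2.50 and 2.17. The lower gene was Xpo7, a nuclear exporter of erythroid cells, at -3.87 and -1.32 against 1.51 to 2.18. Its second probe differed by -0.35 only, so the 2 probes of Xpo7 disagree in size. Together these 4 lists gave 22 higher of 40 tested genes under the main scaling and 11 to 18 under the other 5. Hbb-b1 and Hba-a1, by which samples 1 and 2 were chosen, are among the 22.

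The regulators were split. Klf1, the activator of adult beta globin, read 0.73 and 0.37 in samples 1 and 2 against -2.97 to -1.43. Gata1, the master factor of the red cell lineage, read 3.59 and 3.49 against 1.71 to 2.41, and the erythropoietin receptor gene Epor 2.11 and 1.77 against -0.17 to 0.47. These 3 of 13 were apart. E2f2 (1.02), Nfe2 (0.83) and Gfi1b (0.64), which also serve megakaryocytes or earlier progenitors, were not, and the list median of 0.30 was beside that of all genes and turned negative under 3 of 13 alternatives. None of 17 tested megakaryocyte genes was apart. Their median was 0.59. The platelet chemokine gene Ppbp read -0.99 and -1.72 against -5.28 to -1.07, was well above background on only 1 of the 4 later arrays, and overlapped.

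Because red cell genes read higher together, the 250 bases before the start of 2 globin genes are shown, from RefSeq on the GRCm38.p6 build. Capitals mark CACCC boxes (CCNCNCCC, the kind bound by Klf1) and GATA boxes, searched on both strands. The GATA boxes sought were the letters AGATAA, the variant form AGATAG, its counterpart beginning with thymine TGATAA, and the remaining form TGATAG.
Hbb-bt upstream: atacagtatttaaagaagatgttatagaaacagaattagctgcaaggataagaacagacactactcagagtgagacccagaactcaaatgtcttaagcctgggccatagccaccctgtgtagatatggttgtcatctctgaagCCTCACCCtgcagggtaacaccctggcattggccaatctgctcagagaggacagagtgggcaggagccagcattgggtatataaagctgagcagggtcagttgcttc
Hba-a1 upstream: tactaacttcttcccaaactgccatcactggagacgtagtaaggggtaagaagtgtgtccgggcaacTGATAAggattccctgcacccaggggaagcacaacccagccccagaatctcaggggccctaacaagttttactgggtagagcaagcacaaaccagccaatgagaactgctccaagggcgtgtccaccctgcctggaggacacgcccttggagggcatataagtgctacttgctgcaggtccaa
Hbb-bt is the current symbol of the entry the files call Hbb-b1. Its window is chr7:103813924-103814173 on the minus strand, with 1 CACCC box. The Hba-a1 window is chr11:32283422-32283671 on the plus strand, with a GATA box 183 bases before the start. Of the 22 higher genes of the 4 red cell lists, 15 matched the promoter table; 10 windows held a CACCC box (66.7%, against 45.6% of 27025 genes in the table) and 5 a GATA box (33.3% against 27.1%). Of the 14 higher secondary granule genes described below that matched the table, 7 held a CACCC box (50%) and 6 a GATA box (42.9%), the latter a larger share than in the red cell genes. These shares are a description of letters and not of binding.

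Neutrophil granule genes formed the second large group, and the secondary granule list was the most uniform. Of its 20 genes, 17 were apart and higher, all 20 lay above the all-gene median, and the list median was 1.87. S100a8 and Ngp, by which samples 1 and 2 were chosen, are among the 17. S100a8, one chain of the calcium-binding protein calprotectin, read 10.43 and 9.58 in samples 1 and 2 against 7.46, 7.70, 8.89 and 9.03. Ngp, neutrophilic granule protein, read 8.33 and 7.74 against 5.05, 4.87, 6.84 and 7.12. In both genes samples 1 and 2 were highest, samples 5 and 6 next and samples 3 and 4 lowest. Lcn2, which encodes the iron-siderophore binder lipocalin 2, read 9.12 and 8.53 against 5.71 to 7.75. The ficolin gene Fcnb, the surface antigen gene Cd177 and Pglyrp1 differed by 2.19, 2.09 and 2.06. 1100001G20Rik, now Wfdc21, differed by 2.0. Counts of apart secondary granule genes were 14 to 16 under the other scalings except quantile normalization, which left 8.

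Of 9 tested primary granule genes 4 were apart and higher (44.4%, beside 10.2% of all genes), and 1 to 4 were under the other 5 scalings. Elane, neutrophil elastase, read 6.89 and 5.69 against 3.07 to 5.26, and Ms4a3, a marker of granulocyte-monocyte progenitors, 5.07 and 4.45 against 1.97 to 3.30. The proteinase genes Prtn3 and Ctsg were the other 2, and Prss57 differed by 1.45. Mpo, myeloperoxidase, differed by 1.06 and missed the rule in NIKaly/aly, where the difference was 0.94. In the mature neutrophil list 7 of 23 were apart and higher with a median of 0.85, and 2 to 5 were under the other 5 scalings. The formyl peptide receptor genes Fpr2 and Fpr1 differed by 1.84 and 1.4, the gelatinase gene Mmp9 by 1.64 and Il1b by 1.39. Ly6g, the gene of the Gr-1 antigen used to deplete neutrophils, read 2.61 and 2.37 against 0.02 to 1.72. Other members went the opposite way without meeting the rule, and are named after their values were seen. The G-CSF receptor gene Csf3r read 5.98 and 5.72 against 6.48 to 6.74, below all 4 later samples, and Slfn4 differed by -0.68 with overlap. Itgam, the CD11b gene, was not apart, and its 3 probes disagree in sign (-0.47, 1.05 and 0.77).

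The 250 bases before the start of Ngp are shown as a window that holds the C/EBP-type letters TTGCNNAA, sought on either strand and put in capitals.
Ngp upstream: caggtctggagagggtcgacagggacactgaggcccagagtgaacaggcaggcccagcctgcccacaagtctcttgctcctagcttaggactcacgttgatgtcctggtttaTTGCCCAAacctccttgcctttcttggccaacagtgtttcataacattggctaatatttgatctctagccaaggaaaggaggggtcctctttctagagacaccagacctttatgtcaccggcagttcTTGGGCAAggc
The window is chr9:110419558-110419807 on the plus strand of GRCm38.p6, and the matches begin 138 and 11 bases before the start. Of the 17 higher secondary granule genes 14 matched the promoter table, and 6 windows (42.9%) held these letters, against 9.55% of 27025 genes. The 6 were Fcnb, Lcn2, Ltf, Lyz1, Mmp8 and Ngp. The window of S100a8, the other neutrophil marker, held 0 matches. Cebpe, which encodes the C/EBP factor of late granule formation, was among the 17. Named after its values were seen, it read 5.98 and 5.48 against 2.82 to 4.75. The letters do not show binding, and a role of C/EBP factors was not tested.

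**Figure D3:**
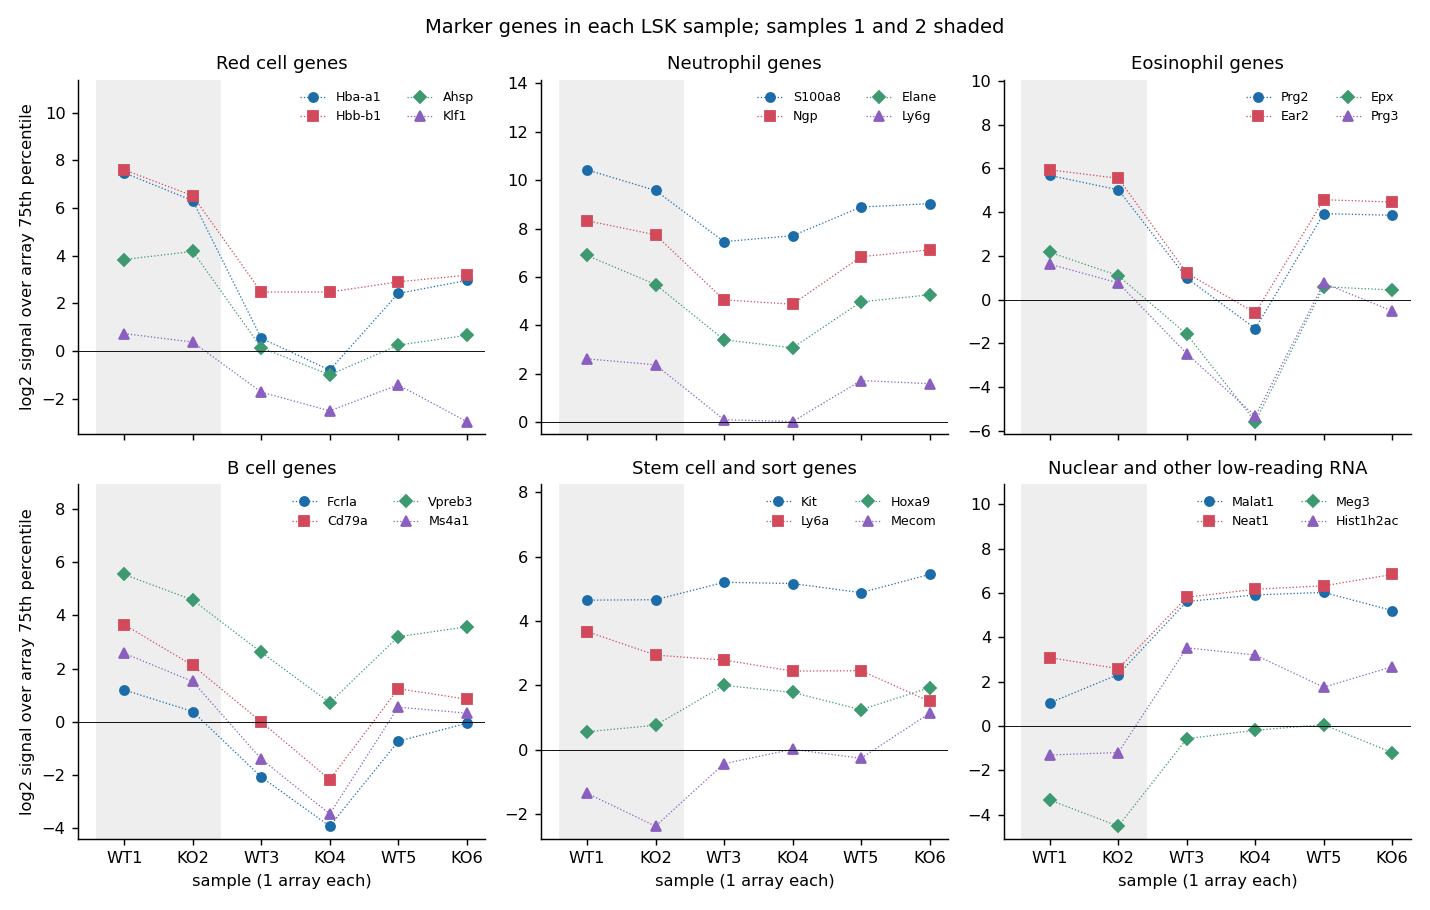
Points give the log2 level over the array's 75th percentile for 4 genes per panel in each of the 6 samples, with samples 1 and 2 shaded. Red cell genes drop after sample 2 and stay lower, neutrophil and eosinophil genes are lowest in samples 3 and 4, and Malat1 is at 1.04 and 2.32 in samples 1 and 2 and at least 5.20 in the others.

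Several eosinophil genes followed the same order of samples as S100a8 and Ngp, and the members named here have the largest differences of their list. The major basic protein gene Prg2 read 5.68 and 5.02 in samples 1 and 2 against 0.99, -1.32, 3.93 and 3.86. Its homologue Prg3 and the peroxidase gene Epx differed by 3.08 and 3.16. The eosinophil ribonuclease genes Ear2, Ear1 and Ear6 differed by 3.33, 3.32 and 3.09, though these paralogs can share probes. In total 9 of 16 tested genes of the eosinophil, basophil and mast cell list were apart and higher (56.25%, beside 10.2% of all genes), with a median of 1.42. The count was 6 or 7 under the other 5 scalings. The mast cell protease genes Mcpt4, Cma1 and Tpsab1 were not well above background on any of the 6.

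Macrophage genes were higher in part. The complement genes C1qc and C1qb were well above background on 1 of the 4 later arrays, sample 5 read above samples 1 and 2, and neither gene was apart. Vcam1 (1.46) and Emr1, the F4/80 gene (1.42), overlapped in the same way, through sample 5. The iron exporter gene Slc40a1 was the only apart and higher gene of 13 tested (7.69%, beside 10.2% of all genes), at 0.17 and 0.38 against -2.34 to -0.06. Siglech, a plasmacytoid dendritic cell gene, was apart and lower by 1 probe (difference -1.22) and higher by its other probe (1.17), so it has no settled direction. Mrc1, Siglec1, Marco and Timd4 were not well above background on any of the 6. In the granulocyte-monocyte progenitor list 2 of 19 genes were apart and higher (10.5%, beside 10.2% of all genes), Ly6c1 (1.54) and the Fc receptor gene Fcgr3 (1.15). Fcgr3 overlapped across genotypes, with sample 5 at 1.34 and sample 2 at 1.17. Cebpd (1.4), F13a1 (1.0), Cebpa (0.80) and Klf4 (-1.02) did not meet the rule, and the list median was 0.58.

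B cell genes read higher in both samples. Of 16 tested genes 11 were apart and higher (68.8%, beside 10.2% of all genes), with a median of 1.77. Under the other 5 scalings 5 to 10 were. Faim3, the IgM Fc receptor gene, read 3.60 and 1.49 against -5.38 to 0.71. Cd79a, a signalling chain of the B cell receptor, read 3.65 and 2.12 against -2.17 to 1.24. Sample 1 was the brightest in both of these and sample 4 the dimmest. Ms4a1, the CD20 gene, differed by 3.04, the pre-B gene Vpreb3 by 2.53, Fcrla by 2.49 and the coactivator gene Pou2af1 by 2.04. In 2 antibody genes sample 6 stood far below the others. Igh-VJ558, a variable segment entry whose probes can be shared among segments, read 7.16 and 6.43 against 5.62, 3.31, 6.62 and -3.85. The joining chain gene Igj read 4.31 and 2.95 against 1.98, 1.05, 2.89 and -3.84. Without sample 6 the differences fell from 3.87 to 2.08 for Igh-VJ558 and from 3.11 to 1.89 for Igj, and sample 5 lay above sample 2 for Igh-VJ558. Mzb1, an antibody-secretion chaperone, and Sdf2l1 and Creld2 were the other apart genes of 8 in the plasma cell list, at 2.25, 1.47 and 1.19.

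Of 16 T cell genes, 2 were apart and higher (12.5%, beside 10.2% of all genes), Cd2 and Cd3d, at differences of 2.55 and 1.94. Cd4 read 1.61 and 0.98 against -0.01 to 0.72, and Cd3e 2.58 and 1.76 against 0.95 to 1.99. Cd28 was apart and lower, at 0.29 and 1.2 against 0.83 to 3.29, and Cd8a was not well above background on any of the 6. The granzyme gene Gzma, Nkg7 and Ccl5 were the 3 apart of 9 NK cell genes (33.3%, beside 10.2% of all genes), at 2.77, 1.42 and 1.18. That 3 became 1 or 2 under the other 5 scalings. Ncr1, Klrk1 and Eomes were not well above background on any array. In the class II list, the 4 apart genes of 8 tested included Cd74, H2-Eb1 and H2-Aa, at 1.99, 1.87 and 1.85. The 4 became 0 with quantile normalization and with the percentile of bright probes, and 2 after centring. Acta2, Fn1 and Fabp4, 3 of 4 apart genes of the 9 tested in the endothelial and stromal list, differed by 2.10, 1.59 and 1.5. That 4 became 0 with normexp and 1 with the percentile of bright probes. The endothelial cadherin gene Cdh5 was not well above background on any of the 6.

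Across the 14 mature blood cell lists 80 of 187 tested genes were apart and higher (42.8%) and 3 lower, beside 10.2% and 6.94% of all tested genes. Under the other 5 scalings 47 to 61 were higher and 1 to 5 lower. Across the 3 stem and progenitor lists 4 of 72 were higher (5.56%) and 4 lower. The other scalings gave 1 to 4 higher and 1 to 8 lower, with 1 and 8 on the percentile of bright probes and 3 and 1 with normexp. The members passed a filter that a gene bright in samples 1 and 2 and 1 other array could meet. These shares therefore describe the genes that passed. The 80 include Hbb-b1, Hba-a1, S100a8 and Ngp, by which samples 1 and 2 were chosen, so the share partly repeats that choice. The 14 lists include the primary granule list, which holds Ms4a3, a marker of granulocyte-monocyte progenitors.

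The genes that define the sorted population were present on every array. Kit read 4.65 and 4.66 in samples 1 and 2 and 4.88 to 5.45 in samples 3 to 6, so samples 1 and 2 lay below the others by 0.52 on average. Ly6a, the Sca-1 gene, read 3.67 and 2.94 against 1.5 to 2.79, a difference of 1.01 in the other direction that did not reach the rule in NIKaly/aly. Ptprc, the CD45 gene, differed by -0.06 and overlapped. Of the lineage genes, Ly6g was apart, as given above, and Cd8a was not well above background anywhere.

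Stem cell genes were near or below the middle of all genes. None of 35 tested was apart and higher (1 with quantile normalization), beside 10.2% of all genes. The 3 lower genes (0 to 4 under the other scalings) are near the share of all genes that read lower, 6.94%. The list median of -0.11 lay under the all-gene median with every alternative. Mecom, a factor of long-term stem cells, was well above background on each of samples 3 to 6 and on neither of samples 1 and 2, at least 3.94-fold lower. Hoxa9 read 0.56 and 0.76 against 1.24 to 2.0, though its second probe differed by only -0.30. Mllt3 differed by -1.01. Tek (-1.15) was not apart and changed sign with normexp, and Ndn went the other way (1.15). Of 18 multipotent and lymphoid-primed genes, 2 were apart and higher (11.1%, beside 10.2% of all genes) and 1 lower. Ly6d, a marker of B-lineage commitment, read 5.16 and 3.82 against 0.43 to 3.04, and Cd52 differed by 1.35. Ikzf1, the Ikaros gene, was lower by its brightest probe (-1.38), while its other 2 probes differed by -0.04 and 0.02. Mef2c (-1.0), Cd48 (0.99) and Lsp1 (0.74) did not meet the rule.

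The NF-kB list, which holds the mutated gene, had a median difference of -0.10 against 0.31 for all tested genes. It lay below the all-gene median in 13 of 13 alternatives. Map3k14 read 0.73 and 1.60 in samples 1 and 2 against 2.06 to 2.54, so both lay below the others, with differences of -1.56 in wild type and -0.74 in NIKaly/aly. The lymphotoxin receptor gene Ltbr, which signals through NIK, was the 1 apart gene of 18 (5.56%, beside 10.2% of all genes), at 1.06. The kinase scaffold gene Ikbkg differed by 0.89. Of the immediate-early and heat shock genes, which respond to handling of cells, none of 23 was apart and the median was -0.07. That list too lay below the all-gene median in 13 of 13 alternatives. Fosb (-0.78), Klf6 (-0.76) and Hspa8 (0.77) differed most. In the interferon list 2 of 31 were higher (6.45%, beside 10.2% of all genes) and 2 lower, with a median of 0.29. Mx1, one of the lower genes, was not well above background in samples 1 and 2. Under the main scaling it was at least 1.92-fold lower, and with normexp its difference was -0.37. Mx2 (-1.47) was not apart.

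Named genes with large downward differences included long nuclear RNAs and protein-coding genes. Malat1, a long non-coding RNA of nuclear speckles, read 1.04 and 2.32 in samples 1 and 2 against 5.61, 5.91, 6.02 and 5.20, or 16.1-fold lower on the mean. An entry the files name NEAT2 carries the same 60 bases on spots of its own and is not an independent transcript. Neat1, the RNA around which paraspeckles form, read 3.08 and 2.58 against 5.80 to 6.83, and the separately placed probe of the entry NEAT1 read 2.63 and 2.54 against 6.01 to 6.70. All 5 NEAT1 probes differed by -3.97 to -3.40. Meg3, an imprinted non-coding RNA, was well above background on every later array and on neither of the first 2. Under the main scaling it was at least 3.39-fold lower, and Fam71a at least 9.94-fold lower. With normexp the differences of Meg3 and Fam71a were smaller, at -0.79 and -2.06. Hist1h2ac, a histone H2A gene, read -1.31 and -1.2 against 1.75 to 3.52, Tmem88 0.30 and 0.79 against 2.98 to 4.12, and the pseudogene Slc2a4rg-ps -1.60 and -0.29 against 1.82 to 2.25.

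The tested genes were also grouped by kind of identifier, a grouping chosen after the values were seen. Of 1447 entries named by a genome interval, which the array lists as non-coding transcripts, 315 (21.8%) were apart and lower and 66 higher, with a median of -0.13. By genotype the median was 0.05 in wild type and -0.41 in NIKaly/aly, so only NIKaly/aly shows a downward median. Of 10949 entries with a RefSeq messenger RNA identifier, 301 (2.75%) were lower and 1046 (9.55%) higher, with a median of 0.32. Of 285 entries with a RefSeq non-coding identifier, 31 (10.9%) were higher and 28 (9.82%) lower, with a median of 0.19, near the shares of all tested genes in the upward direction. The interval entries were also dimmer than the messenger RNA entries, with a median level of -0.92 against 1.68, and the part of brightness in this was not tested. Over quartiles of mean level the median difference was -0.05, 0.13, 0.33 and 0.73 from dimmest to brightest, and in the brightest 5% it was 0.96. Rnu3b1, a small nucleolar RNA of ribosome assembly, read 10.20 and 9.17 against 5.69 to 6.52.

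Bright genes shared by most cells read higher in samples 1 and 2 by amounts that depended on scaling. All 56 tested respiratory chain genes and all 75 ribosomal protein genes lay above the all-gene median, with list medians of 1.23 and 0.95. Uqcrc1, a core subunit of complex III, read 5.90 and 5.45 against 3.77 to 4.14, and the complex II subunit gene Sdhb 7.32 and 7.06 against 5.28 to 5.87. Atp5o of the ATP synthase differed by 1.64. In the respiratory chain list 35 genes were apart, which became 14 after centring and 1 to 7 under the other 4 scalings. The ribosomal genes Rps2, Rplp1 and Rps3 differed by 1.21, 1.2 and 1.17, and 2 of 75 were apart. The median difference of the ribosomal list stayed above 0 in 13 of 13 alternatives with a lowest value of 0.03, and lay above the all-gene median in 12. Of 34 cell cycle genes 9 were apart and higher, among them the replication helicase gene Mcm5 (1.5), the mitotic activator Cdc20 (1.42) and Tk1 (1.39). The 9 became 0 to 2 under the other 5 scalings. Of 45 replication-dependent histone genes, a class taken after the values were seen, 19 were apart and higher (42.2%, beside 10.2% of all genes). A further 4 were lower (8.89%, beside 6.94%). The class median was 1.96 in wild type and 0.61 in NIKaly/aly. This class is bright, with a median level of 4.58 against 1.34 for all tested genes, and the part of brightness was not tested.

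The later samples were not alike in all of these groups. Against samples 3 and 4 the secondary granule list had a median difference of 2.71, and against samples 5 and 6 one of 1.04. The mature neutrophil list gave 1.58 and 0.31, the eosinophil, basophil and mast cell list 2.44 and 0.97, and the macrophage list 1.75 and 0.39. For these 4 lists the median difference from samples 5 and 6 was the smaller one. It was also the smaller one for globins (7.03 and 4.02), B cell (1.92 and 1.18) and plasma cell genes (1.53 and 0.85). NK cell (1.60 and 0.65) and T cell genes (0.73 and 0.25) went the same way. The list medians of heme synthesis (0.72 and 0.94), red cell membrane (1.45 and 1.81), respiratory chain (1.10 and 1.35) and cell cycle genes (0.70 and 0.96) showed no such order. Those of primary granule genes were nearly equal (1.18 and 1.17), but the members were mixed. Elane (3.05 and 1.17) and Ms4a3 were among those with the smaller difference from samples 5 and 6. Prss57 (1.15 and 1.76), Ctsg and Serpinb1a went the other way. The median difference was positive against both pairs in all these lists. Against samples 5 and 6, however, the mature neutrophil (0.31) and T cell lists (0.25) did not exceed the all-gene median of 0.32. The list median level of NK cell genes averaged 0.16 in samples 5 and 6 and -0.61 in samples 1 and 2. The summed signal of the 3 tested globins, relative to the array's 75th percentile, was 2558 and 910 in samples 1 and 2, 22.4 and 12.1 in samples 3 and 4, and 81.1 and 125 in samples 5 and 6. That of the 20 secondary granule genes was 8421 and 5179, then 1270 and 1378, then 3815 and 4412. These sums weight the brightest probes. Samples 5 and 6 also lie alone in slide row 2, so slide row and sample pair cannot be told apart there. Within row 1, samples 1 and 2 against 3 and 4 gave 1496 higher and 1077 lower genes.

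**Figure D4:**
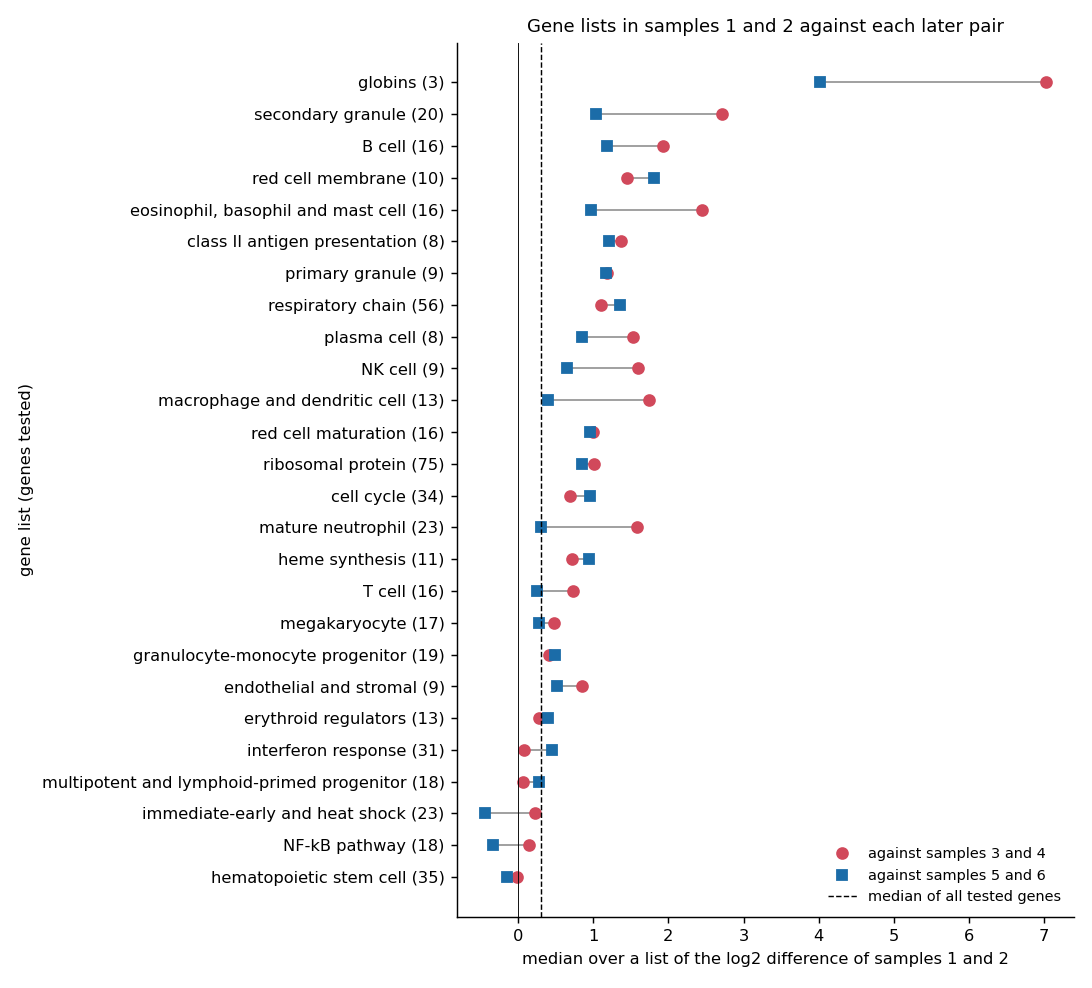
For each gene list, circles give the median log2 difference of samples 1 and 2 from samples 3 and 4 and squares that from samples 5 and 6, with the number of genes tested in brackets; the dashed line is the all-gene median of 0.31. Circle and square lie far apart for the secondary granule list (2.71 and 1.04) and close together for the primary granule (1.18 and 1.17), heme synthesis and respiratory chain lists.

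The separation was present in wild type and in NIKaly/aly, and whether its size differed was tested as the interaction of genotype and sample set. No gene passed at an adjusted p of 0.05 (limma, Benjamini-Hochberg over 15684 genes), with 529 genes (3.37%) under an unadjusted 0.05, and the fit has 2 residual degrees of freedom. The Hbb-b1 difference was 4.92 in wild type and 3.69 in NIKaly/aly, an interaction of -1.23 ± 0.51 (SE, limma adjusted p = 0.970). For Malat1 the interaction was 1.54 ± 0.50 and for S100a8 -1.04 ± 1.06, with the same adjusted p. The smallest adjusted p was 0.108, for Vill, which encodes a villin-like protein and read -4.71 in NIKaly/aly 2 and 1.61 to 4.14 on the other 5 arrays. In simulated data with 200 genes changed by 6 log2 units, the interaction test recovered 69.5%, so smaller differences between the genotypes would often be missed.

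With the sample set as a term, 1 of 15684 entries (0.00638%) differed between genotypes (limma), and 691 (4.41%) had an unadjusted p under 0.05. It is a probe without a gene name in the files, A_55_P2045512, at chr19:59163479-59163538 on the plus strand of mm9. It read 5.71, 4.82 and 4.37 in the wild-type samples 1, 3 and 5 and 8.37, 6.81 and 6.72 in the NIKaly/aly samples 2, 4 and 6. The estimate was 2.33 ± 0.17 (SE, adjusted p = 0.0446), with NIKaly/aly higher in 3 of 3 consecutive pairs. The call was lost without sample 1, 2, 4 or 5, with adjusted p-values of 0.958, 1.0, 0.107 and 0.338, with genotype as the only term, and without the intensity trend (0.394). For Hba-a1, Ngp and the other genes described above, genotype with the sample set as a term gave no adjusted p under 0.05.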

How the data were processed

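LSK cells of 3 wild-type and 3 NIKaly/aly samples were measured on 1-colour arrays, 1 per sample. The deposited intensity values were extracted by the authors; per the file headers, the software was Agilent's Feature Extraction, version 10.7.3.1. In the authors' deposited series table each value is a ratio, the processed signal over the array's median, since both agreed on every spot. Each array's 75th percentile of the processed signal, taken without control spots, was subtracted after log2. Control and outlier-marked spots were left out, none was saturated, and spots of 1 probe were averaged. Probes well above background on at least 3 of 6 arrays entered (21242 of 55681), 22 of which lacked a value and were dropped, and the brightest probe of each gene name was kept. Gene names are the files' own. Of the probes, 27509 matched RefSeq by accession, 3549 by symbol and 404 by synonym, and 24219 did not match.

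Genotype, and its interaction with the sample set, were fitted in limma 3.58.1 (R 4.3.3) by lmFit and trended eBayes, two-sided, with Benjamini-Hochberg adjustment. Steps were tested on simulated data, in which the genotype step recovered 91% of 200 genes changed by 4 log2 units. The samples, the 27 lists, the motifs and the tests were chosen with earlier results of these data known. Named genes are the 4 markers, Map3k14, the sort antigens, the 10 largest apart differences each way among named genes, up to 6 members of each blood cell list and 3 of each other list, and calls of the tests. Alternatives changed scaling, background correction, filter, probe averaging, samples, slide row, fold and model terms.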

Additional observations from a re-analysis of the deposited data

How the results depend on the processing

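The counts of apart genes moved with the fold required, scaling and background correction. Against 1592 higher and 1089 lower genes, the higher count was 296 with the 75th percentile of bright probes, 623 with median scaling, 615 with quantile normalization, 288 with normexp, 602 after centring and 70 at 4-fold. The lower count was 1963 with the percentile of bright probes, 316 with normexp, 439 with the filter on all 6 arrays and 263 at 4-fold. Leaving out one of samples 3 to 6 gave 1417 to 1715 higher and 1004 to 1151 lower; without sample 1 or 2 a genotype has no difference to count. Of 26 lists, 20 had a median above that of all tested genes, and this count stayed within 1.5 times under every alternative run. That tolerance is wide for 20 of 26, and single lists changed side. The erythroid regulator list kept its side of the all-gene median in 8 of 13 alternatives. The interferon list and the multipotent and lymphoid-primed list each kept theirs in 11. The genotype count of 1 became 33 with median scaling, 22 with normexp, 100 with no filter, 2 with consecutive pairs as a block or slide row added (the same model), and 0 with genotype alone or with no intensity trend, and it was 0 to 6 without one sample. The count for the interaction of genotype and split was 0 and became 3 with median scaling, 9 with normexp and 117 with no filter, and it was 0 to 2 without one sample. The cause was not tested. No paired analysis was possible by labelled number, because the genotypes share none; the block of consecutive pairs above rests on the order of the sample numbers and not on a stated pairing. The 6 arrays limit precision, and samples 1 and 6 were the dimmest over background.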
